A study of Arabidopsis thaliana with 37 samples.

Results

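The genes described here are 7 members of the plant UDP-glycosyltransferase family: UGT71C1 (AT2G29750), UGT72E1 (AT3G50740), UGT72E3 (AT5G26310), UGT73B1 (AT4G34138), UGT73C1 (AT2G36750), UGT74D1 (AT2G31750) and UGT84A3 (AT4G15490). They were taken by name from the platform's probe-to-gene table, 1 probe set each, out of 3592 genes named there and 8247 probe sets on the array, and all 7 were bright enough to test among 6112 probe sets. RNA of Arabidopsis thaliana seedlings was hybridised to 37 one-colour arrays in 11 groups. The series compared wild-type plants with mutants of ARGONAUTE1 (AGO1), which slices the targets of plant microRNAs, and of DICER-LIKE1 (DCL1), which cuts microRNAs from their precursors. At 9 days there were 3 arrays of the accession Ler, 3 of the accession Col, 4 of ago1-10 and 4 of ago1-11. The 21-day arrays comprise 2 Ler sets, Ler (1) with 3 arrays and Ler (2) with 4, besides 3 of Col, 3 of ago1-10, 3 of ago1-11 and 4 of dcl1-9, whose titles read caf. At 35 days only ago1-10 was measured, on 3 arrays, with no wild type of that age. The ago1-10 arrays carry the strain code MR44, except replicate 4 at 9 days and all 35-day arrays, which carry MR49. The 9-day ago1-11 arrays carry 4 codes (MR51, MR53, MR54 and MR57) and the 21-day ones carry MR57. The labels give no accession for the mutants, and Ler of the same age was taken as their wild type. Both ago1 alleles share the Ler arrays of their age as wild type, so their differences are given side by side and not counted against each other.

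UDP-glycosyltransferases move a sugar, usually glucose, from a UDP-sugar to a small molecule, which makes it more soluble and often fit for storage in the vacuole. Plants hold a large family of them, recognised by a conserved motif near the C-terminus that binds the sugar donor. Their acceptors include the phenylpropanoids from which lignin and sinapate esters are built, flavonols, and the hormones auxin and cytokinin. Several members often share an acceptor, and several genes lie next to near relatives on the chromosome.

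Signals are the deposited intensities after scaling of all arrays to 1 median, and group values are means ± SD over arrays. Differences are log2 values, mutant minus wild type, from 1 limma model over all arrays, and calls were made at an adjusted p (Benjamini-Hochberg over the 6112 probe sets) under 0.05. A signal under 12.2, the value used to filter dim probe sets, is near background here. It occurred for UGT72E3 on 27 of 37 arrays, for UGT73C1 on 19, for UGT73B1 on 17, for UGT74D1 on 14 and for UGT71C1 on 9, and never for UGT72E1 or UGT84A3. Because 1.2 was added before taking logs, the size of a difference that involves a dim group depends on that constant, and the value with 16 added is given for such genes. Before scaling, array medians ranged from 19.4 to 58.2. AGO1 and DCL1 have 0 named probe sets, so the mutated genes were not followed. The arrays measure whole seedlings, in which fewer cells of a type and less RNA per cell cannot be told apart.

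**Figure D1:**
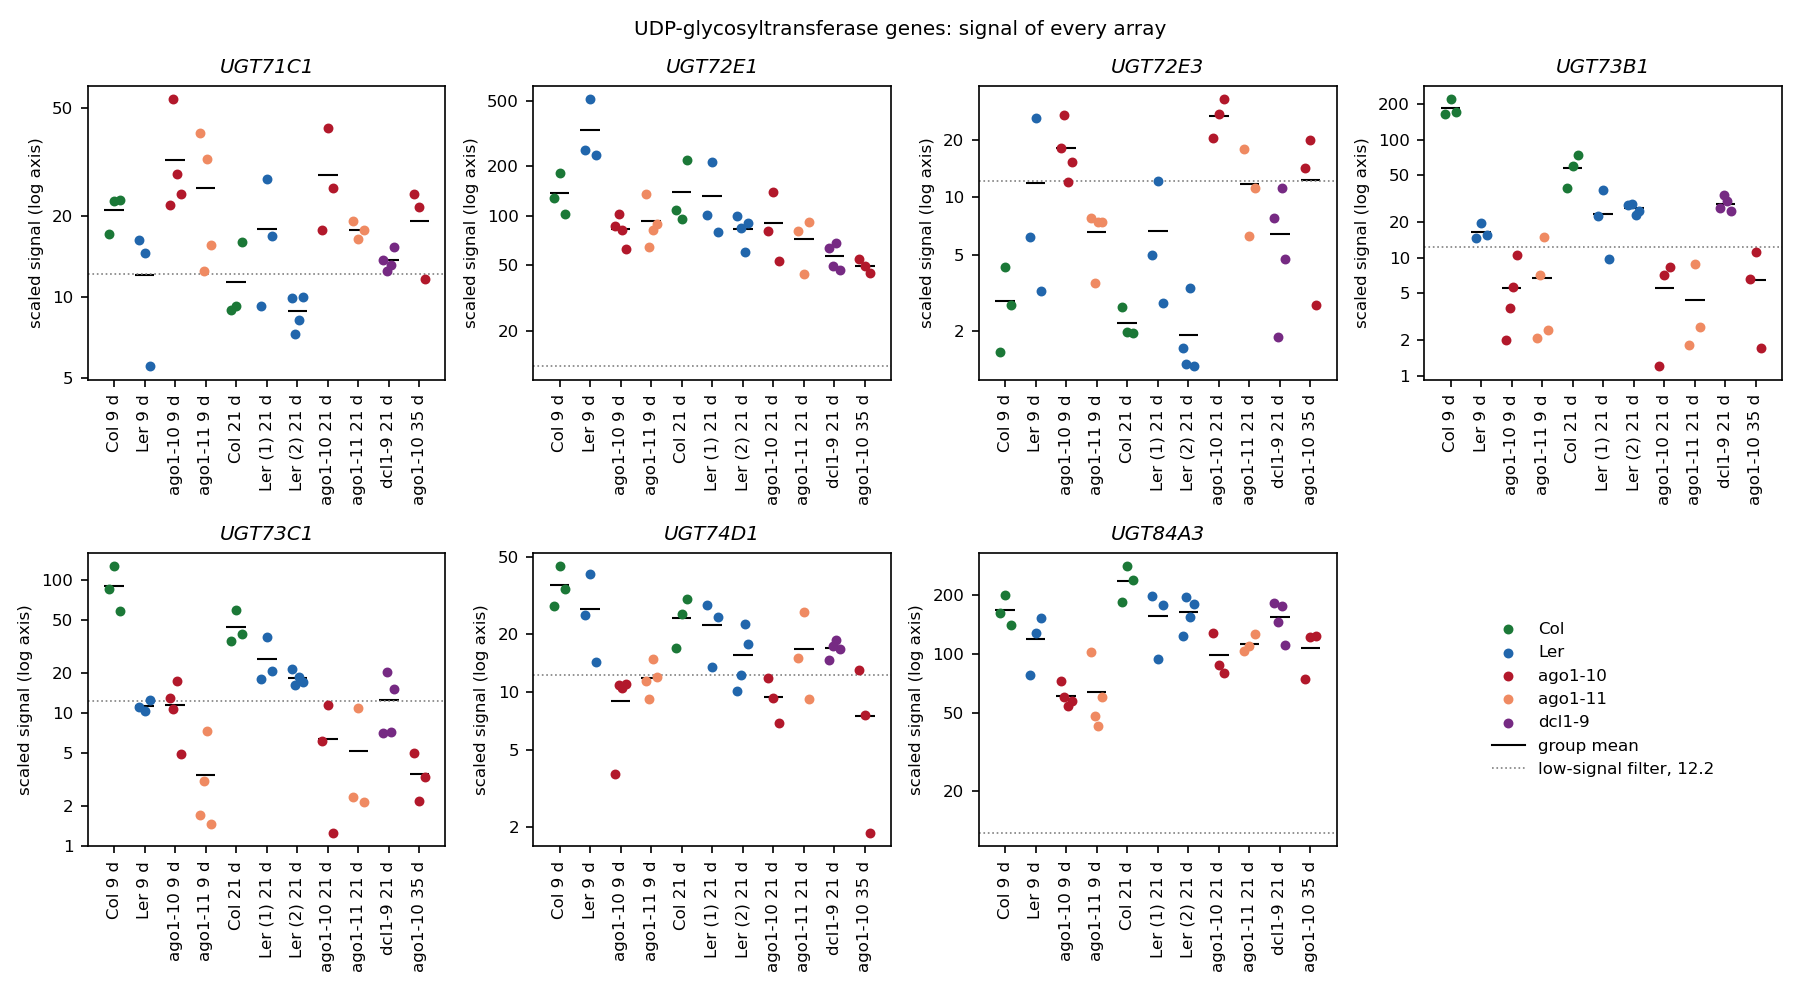
Scaled signal of each gene on every array (points, log axis) by group, with the group mean as a black line and the value 12.2 as a dotted line. UGT73B1 and UGT73C1 were brightest in Col and dim on most ago1-10 and ago1-11 arrays, UGT72E1 stood highest in 9-day Ler, and UGT72E3 stood highest in 21-day ago1-10.

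In 9-day ago1-10 seedlings UGT72E1, UGT73B1, UGT74D1 and UGT84A3 fell and UGT71C1 rose, so that 5 of the 7 genes were called. Over all probe sets 16% were called in that comparison, 9.59% lower and 6.43% higher. In 21-day ago1-10 plants UGT73B1 and UGT73C1 fell and UGT72E3 rose, 3 of 7, against 21.5% of all probe sets, 11.5% lower and 10.0% higher. In 9-day ago1-11 seedlings UGT72E1, UGT73C1 and UGT84A3 fell and 0 rose, against 4.70% of all probe sets, 2.59% lower and 2.11% higher. In 21-day ago1-11 plants UGT73B1 and UGT73C1 fell and 0 rose, against 2.78%, 1.15% lower and 1.64% higher. In dcl1-9 0 of the 7 were called, against 0.785%, and 1 had an unadjusted p under 0.05. The median difference of the 7 genes was -0.91 and -0.62 in ago1-10 at 9 and 21 days, -1.0 and -0.43 in ago1-11, and 0.12 in dcl1-9, where the medians of all probe sets were -0.01, 0.01, -0.05, 0.03 and -0.03. The genes were chosen with results of these data known, so these counts describe them and show nothing particular to them.

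Among the 5 comparisons of a mutant with its wild type, markers of green tissue were called only in those of ago1-10. Of 6 such genes (RCA, LHCB4.1, PSAE-1, PRK, SBPASE and HPR) 4 fell in ago1-10 at 9 days and 6 at 21 days, with medians of -0.96 and -1.30. Over all probe sets 9.59% and 11.5% were called lower there. In ago1-11 (4.70% and 2.78% of all probe sets called) and dcl1-9 (0.785%) 0 of these markers were called. Their summed signal lay between 9565 and 11229 on the 9-day ago1-10 arrays, between 13374 and 22309 on those of ago1-11 and between 18290 and 22865 on those of Ler. At 21 days it lay between 6114 and 9596 in ago1-10, 15476 and 16862 in ago1-11, 17009 and 18771 in Ler (1), 12071 and 15090 in Ler (2), and 9795 and 11849 in dcl1-9. Thus all 21-day sums of ago1-11 also lay below those of Ler (1), and all sums of dcl1-9 below those of Ler (2). The wild types differed as well, with 9-day Col between 12336 and 15201, below 9-day Ler. Of the flower and pollen markers 3 were measured (TUA1, ACT11 and ROXY1) and 0 were called in the 5 comparisons of a mutant with its wild type. ACT11 was lower in ago1-11 than in ago1-10 at 9 days (-1.17, adjusted p = 0.0424). The TUA1 mean went the other way, at 96.8 ± 41.5 in ago1-11 and 66.8 ± 8.13 in ago1-10, and was not called. Of 8 probe sets of the green markers, 5 were called higher in ago1-11 than in ago1-10 at 9 days and 7 at 21 days. Over all probe sets 13.9% and 7.33% were called between the alleles. The part of these markers in the results below was not tested.

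**Figure D2:**
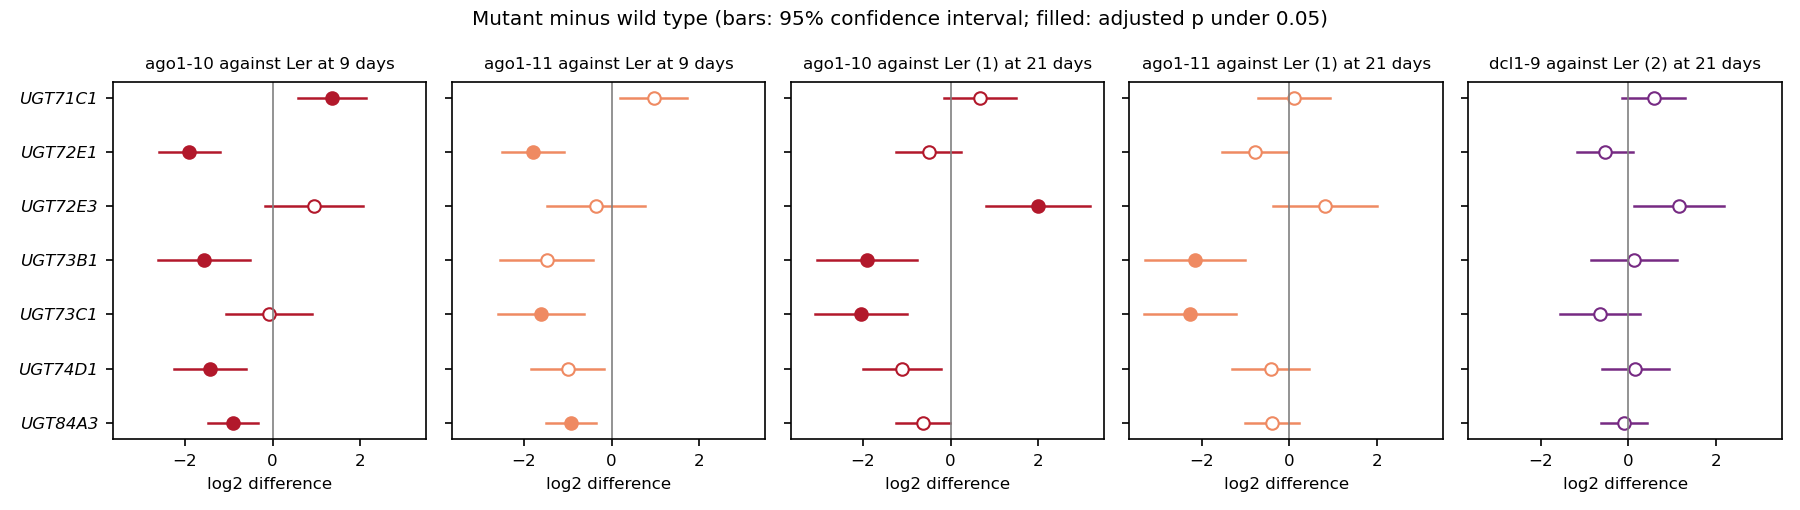
Log2 difference, mutant minus wild type, for each gene (points) with its 95% confidence interval (bars) in the 5 mutant comparisons, with filled points for called genes. Filled points lie to the left of 0 except for UGT71C1 in 9-day ago1-10 (1.35) and UGT72E3 in 21-day ago1-10 (1.99), and the dcl1-9 panel has none.

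Among the genes for phenylpropanoid acceptors, UGT72E1 glucosylates the aldehyde precursors of lignin. Its 3 Ler arrays at 9 days read 252, 508 and 235, its 4 ago1-10 arrays 87.0, 102, 81.7 and 63.3, and its 4 ago1-11 arrays 135, 64.3, 81.6 and 88.9. All mutant arrays of both alleles lay below all Ler arrays. The group means fell from 332 ± 153 to 83.6 ± 16.1 in ago1-10 (-1.90, SE 0.34, limma adjusted p = 0.000204) and to 92.6 ± 30.3 in ago1-11 (-1.79, SE 0.34, adjusted p = 0.00173). These were the only mutant calls among the 7 genes at 9 days that held when any 1 array was left out. The largest adjusted p was 0.00654 in ago1-10 and 0.0380 in ago1-11, both without the Ler array of 508.

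At 21 days the UGT72E1 levels were closer together. Ler (1) read 102, 213 and 79.2, ago1-10 80.7, 139 and 53.3, and ago1-11 80.3, 44.2 and 91.7, so the groups overlapped. The differences were -0.50 (adjusted p = 0.351) and -0.79 (adjusted p = 0.271), with 95% confidence intervals of -1.25 to 0.25 and -1.53 to -0.04. Against Ler (2) the differences were 0.04 in ago1-10 (adjusted p = 0.956) and -0.25 in ago1-11 (adjusted p = 0.696), with overlapping arrays. The change of the ago1-10 difference between the ages was 1.40 and did not pass (adjusted p = 0.0940). Ler itself fell with age at this gene, from 332 to 131 ± 71.4 (-1.37, adjusted p = 0.0207), a call that ended on 3 of 6 omissions of an array (adjusted p = 0.198 without the Ler array of 508). In Col the levels were 137 ± 40.8 and 140 ± 66.6 at the 2 ages. UGT72E1 was lowest in ago1-10 at 35 days, at 54.8, 49.7 and 44.8. Ordered by mean, 9-day Ler stood apart from the next group, 21-day Col, and every other neighbouring pair of groups overlapped.

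UGT72E3, a close relative that acts on the alcohol precursors of lignin, ran another course. Its 21-day ago1-10 arrays read 20.4, 27.2 and 32.5 and its Ler (1) arrays 4.98, 12.1 and 2.80. Every ago1-10 array lay above every Ler (1) array (26.7 ± 6.07 against 6.62 ± 4.86, 1.99, SE 0.58, adjusted p = 0.0129), and with 16 added the difference was 0.93 (adjusted p = 0.00232). The call ended without Ler (1) replicate 3 (adjusted p = 0.0872). The Ler (2) arrays were lower still, at 1.63, 1.34, 3.35 and 1.31, and against them the ago1-10 difference was 3.19 (adjusted p = 4.78e-05), or 1.25 with 16 added (adjusted p = 2.97e-05).

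At 9 days the UGT72E3 arrays of ago1-10 read 18, 27.0, 12 and 15.2, against 6.22, 26.0 and 3.22 in Ler. The Ler array of 26.0 lay within the mutant range, and the difference of 0.94 did not pass (adjusted p = 0.263). In ago1-11 the gene read 7.81, 3.58, 7.46 and 7.43 at 9 days and 17.8, 6.29 and 11.1 at 21 days. Neither age passed (-0.35 with adjusted p = 0.797, and 0.81 with adjusted p = 0.517). All ago1-11 arrays lay below all ago1-10 arrays at both ages, but these differences between the alleles, -1.30 and -1.19, did not pass either (adjusted p = 0.0798 and 0.220). With 16 added they were -0.58 and called at 9 days (adjusted p = 0.0375), and -0.63 and not called at 21 days (adjusted p = 0.0647). In dcl1-9 the 4 arrays read 7.78, 1.87, 11.2 and 4.78 and overlapped Ler (2) (1.16, adjusted p = 0.435). The 3 ago1-10 groups held the highest means of the 11, at 26.7, 18 ± 6.44 and 12.3 ± 8.77 for 21, 9 and 35 days, and no neighbouring pair of groups in the order lay apart.

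UGT84A3 forms glucose esters of hydroxycinnamates such as sinapate. In 9-day ago1-10 it read 72.2, 60.5, 54 and 57.4, all below the Ler arrays of 78.1, 127 and 153. The mean fell from 119 ± 37.8 to 61.0 ± 7.91 (-0.91, SE 0.28, adjusted p = 0.0242). This separation depended on the scaling. The deposited readings of ago1-10 and Ler overlapped, and with no scaling the difference was -0.33 and not called (adjusted p = 0.486). The 9-day ago1-11 arrays read 103, 48.0, 43.0 and 60.4, of which 1 lay within the Ler range, and the difference of -0.93 passed narrowly (adjusted p = 0.0498). These calls ended on 3 and on 5 of 7 omissions, with the largest adjusted p of 0.169 and 0.301 without Ler replicate 3. The ago1-11 call was also lost with 16 added (-0.78, adjusted p = 0.0554). Quantile normalization (adjusted p = 0.0645), trimmed mean scaling (0.0790), no scaling (0.341), no filter (0.0585) and only the compared groups (0.195) lost it too.

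At 21 days UGT84A3 read 127, 87.2 and 80.1 in ago1-10 and 104, 109 and 126 in ago1-11, within the Ler (1) arrays of 196, 94.4 and 177 or just below them. The differences were -0.62 (adjusted p = 0.139) and -0.40 (adjusted p = 0.541). From 9 to 21 days all arrays of ago1-10 moved up (0.65, adjusted p = 0.135), and so did those of ago1-11 (0.90, adjusted p = 0.0892), without passing. The highest group was 21-day Col, at 235 ± 48.6, and the lowest was 9-day ago1-10. In dcl1-9 the level was 153 ± 32.5 beside 163 ± 31.6 in Ler (2) (95% confidence interval of the difference -0.63 to 0.43).

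Among the genes for flavonoid acceptors, UGT73B1 glucosylates flavonols. Its group means ran from 185 ± 29.7 in 9-day Col to 4.39 ± 3.82, near background, in 21-day ago1-11. The 9-day ago1-10 arrays read 1.99, 3.78, 5.61 and 10.6, all below the Ler arrays of 14.6, 19.6 and 15.6 (-1.57, SE 0.52, adjusted p = 0.0361). With 16 added the difference was -0.61 (adjusted p = 0.0355), and the call ended on 6 of 7 omissions (adjusted p up to 0.126). The deposited readings of ago1-10 and Ler overlapped, and with no scaling the call was lost (-1.03, adjusted p = 0.197). In 9-day ago1-11 the arrays read 2.08, 7.16, 15.1 and 2.44, of which 1 lay within the Ler range (-1.48, adjusted p = 0.0934).

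At 21 days UGT73B1 read 1.2, 7.15 and 8.28 in ago1-10 and 1.83, 8.78 and 2.57 in ago1-11, all below the Ler (1) arrays of 22.4, 37.7 and 9.70. The differences were -1.91 (SE 0.56, adjusted p = 0.0129) and -2.15 (SE 0.56, adjusted p = 0.0279), or -0.82 and -0.90 with 16 added. The ago1-10 call ended on 2 of 6 omissions and the ago1-11 call on 4 of 6, each with its largest adjusted p (0.156 and 0.179) without replicate 1 of the mutant. Neither was called when only the arrays of both compared groups were fitted (adjusted p = 0.0682 and 0.135). With no scaling both calls were lost too (-1.47 with adjusted p = 0.0859, and -2.12 with adjusted p = 0.102). The deposited readings of both mutants overlapped those of Ler (1), so the separation depended on the scaling. Against the tighter Ler (2) arrays of 28.2, 28.6, 23.1 and 25.0 both differences were called as well (-2.25 with adjusted p = 0.00145, and -2.50 with adjusted p = 0.00156), at -0.99 and -1.06 with 16 added. In dcl1-9 the arrays read 26.4, 33.7, 30.0 and 24.7 and overlapped Ler (2) (0.12, 95% confidence interval -0.86 to 1.10, adjusted p = 0.975). The dcl1-9 difference exceeded that of ago1-10 by 2.03, which did not pass (adjusted p = 0.174).

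UGT71C1, which glucosylates flavonols and hydroxycinnamates in vitro, was the 1 gene called higher at 9 days. Its ago1-10 arrays read 21.9, 54.1, 28.6 and 24.1 and its Ler arrays 16.3, 14.5 and 5.52. No ago1-10 array overlapped Ler (32.2 ± 14.9 against 12.1 ± 5.76, 1.35, SE 0.38, adjusted p = 0.0118), and the difference was 0.75 with 16 added (adjusted p = 0.0132). Of 7 omissions 2 ended the call, with 0.92 (adjusted p = 0.161) without the Ler array of 5.52. The 9-day ago1-11 arrays spread from 12.4 to 40.5 and overlapped Ler (0.96, adjusted p = 0.142).

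At 21 days UGT71C1 read 17.7, 42.2 and 25.4 in ago1-10, 19.1, 16.4 and 17.8 in ago1-11 and 9.24, 27.4 and 16.8 in Ler (1). Both mutant groups overlapped Ler (1), and the differences were 0.67 (adjusted p = 0.240) and 0.11 (adjusted p = 0.924). The Ler (2) arrays were lower, at 9.90, 7.27, 8.19 and 9.96, and against them ago1-10 was called (1.49, adjusted p = 0.00336, or 0.80 with 16 added). All 4 dcl1-9 arrays (13.7, 12.5, 13.1 and 15.3) lay above all Ler (2) arrays, but the difference of 0.57 did not pass (adjusted p = 0.636).

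Among the genes for hormone acceptors, UGT73C1 can glucosylate cytokinins. It read 11.0, 10.3 and 12.6 in 9-day Ler, 13.0, 10.6, 17.5 and 4.89 in ago1-10 and 1.69, 3.05, 7.36 and 1.46 in ago1-11. The ago1-10 arrays lay on both sides of Ler (-0.08, 95% confidence interval -1.07 to 0.90, adjusted p = 0.935), whereas all ago1-11 arrays lay below Ler (-1.61, SE 0.48, adjusted p = 0.0484). The ago1-11 call was lost with 16 added (-0.50, adjusted p = 0.153) and on 6 of 7 omissions (adjusted p up to 0.183). The deposited readings of ago1-11 and Ler overlapped, and with no scaling the call was lost too (-1.37, adjusted p = 0.183). The 2 alleles differed at 9 days (-1.52, ago1-11 minus ago1-10, adjusted p = 0.0204), although their arrays overlapped, and 4 of 8 omissions ended that call. It was also lost with 16 added (-0.49, adjusted p = 0.0720) and in a model of only the compared groups (adjusted p = 0.0603). In the same comparison the flower marker ACT11 was lower in ago1-11. There 5 of 8 probe sets of green markers were called higher in ago1-11, against 13.9% of all probe sets called. The part of these markers in the UGT73C1 difference was not tested.

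At 21 days UGT73C1 fell in both alleles. Ler (1) read 18, 37.3 and 20.5, ago1-10 6.17, 11.6 and 1.25, and ago1-11 2.33, 10.9 and 2.14. All arrays of both mutants lay below Ler (1), and the differences were -2.04 (SE 0.52, adjusted p = 0.00435) and -2.27 (SE 0.52, adjusted p = 0.0114), or -0.88 and -0.96 with 16 added. The deposited readings of ago1-10 and Ler (1) overlapped, but both calls held with no scaling. Of 6 omissions 1 ended each call: without ago1-10 replicate 3 it stood at -1.38 (adjusted p = 0.0533), and without ago1-11 replicate 1 the adjusted p was 0.0881. When only the compared groups were fitted, the ago1-10 call held and the ago1-11 call did not (adjusted p = 0.0841). That ago1-10 array, titled x44-3B, carries the number 3 where the other numbered 21-day titles carry 2. The change of the ago1-10 difference from 9 to 21 days, -1.96, did not pass (adjusted p = 0.0973). In dcl1-9 the arrays read 7.09, 20.2, 7.18 and 15.1 and overlapped the Ler (2) arrays of 21.4, 16.2, 18.5 and 17.1 (-0.64, adjusted p = 0.725).

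UGT74D1 glucosylates auxins. In 9-day ago1-10 it read 3.77, 10.8, 10.4 and 11.0, all below the Ler arrays of 25.2, 41.0 and 14.3 (9.02 ± 3.51 against 26.8 ± 13.4, -1.43, SE 0.41, adjusted p = 0.0139). With 16 added the difference was -0.74 (adjusted p = 0.00725). Of 7 omissions 2 ended the call, with an adjusted p of 0.128 without the Ler array of 41.0 and 0.0689 without the ago1-10 array of 3.77. The deposited readings of ago1-10 and Ler overlapped, and with no scaling the call was lost (-0.88, adjusted p = 0.164). In 21-day ago1-10 the arrays read 11.8, 9.35 and 6.95, again below all Ler (1) arrays (28.3, 13.6 and 24.6), but the difference of -1.11 missed the threshold (adjusted p = 0.0646) and was -0.57 and called with 16 added (adjusted p = 0.0434). As deposited, the 21-day ago1-10 and Ler (1) readings overlapped. Against Ler (2) the scaled 21-day ago1-10 arrays overlapped. The difference there was -0.64 (adjusted p = 0.278), or -0.31 with 16 added (adjusted p = 0.271). The ago1-11 groups, at 11.8 ± 2.32 and 16.8 ± 8.58, overlapped Ler at both ages (-1.0 with adjusted p = 0.155, and -0.43 with adjusted p = 0.674). In dcl1-9 the level was 16.8 ± 1.69 beside 15.6 ± 5.60 in Ler (2).

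The wild types differed from each other at several of these genes, which bears on the choice of reference. At 9 days UGT73B1 read 164, 219 and 172 in Col and was lower in Ler (-3.38, SE 0.56, adjusted p = 5.96e-05). UGT73C1 read 85.5, 128 and 58.5 in Col and was also lower in Ler (-2.81, SE 0.52, adjusted p = 0.000285). Both calls held on every omission of an array, and with 16 added the differences were -2.62 and -1.91. UGT72E1 was higher in Ler than in Col (1.21, adjusted p = 0.0284), a call that ended on 3 of 6 omissions (adjusted p = 0.223 without the Ler array of 508). These 3 of 7 genes stood against 10.6% of all probe sets called.

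At 21 days 0 of the 7 genes were called between Ler (1) and Col, against 6.48% of all probe sets, and 2 had an unadjusted p under 0.05. All Col arrays of UGT73B1 (39.0, 59.2 and 74.5) still lay above Ler (1) (-1.40, adjusted p = 0.148), and with 16 added the gene was called (-0.94, adjusted p = 0.00475). A comparison added after the data were seen, the Ler-Col difference at 9 days minus that at 21 days, called 0 of 7 genes, against 0.180% of all probe sets, while 4 had an unadjusted p under 0.05. With 16 added it called UGT73B1 (-1.68, adjusted p = 0.00402) and UGT73C1 (-1.36, adjusted p = 0.0246). The 21-day sets Ler (2) and Ler (1) also had 0 genes called between them, against 2.05%, with 2 at an unadjusted p under 0.05.

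Set against Col of the same age, the same mutant arrays gave another list of calls. In 9-day ago1-10 UGT72E1 (-0.69, adjusted p = 0.147) and UGT71C1 (0.51, adjusted p = 0.348) were not called, and 5 genes were: UGT72E3 higher (2.24, adjusted p = 0.00227), and UGT73B1 (-4.95), UGT73C1 (-2.89), UGT74D1 (-1.92) and UGT84A3 (-1.43) lower, against 25.1% of all probe sets. In 9-day ago1-11 UGT72E1 was likewise not called (-0.58, adjusted p = 0.330), and UGT73B1 (-4.86), UGT73C1 (-4.42), UGT74D1 (-1.49) and UGT84A3 (-1.45) were lower, 4 of 7, against 11.4%. Many of these differences involve dim groups. With 16 added, a setting chosen for these comparisons after the data were seen, UGT72E3 stood at 0.84 in 9-day ago1-10, UGT73B1 at -3.23 and -3.17 in ago1-10 and ago1-11, UGT73C1 at -1.92 and -2.42, and UGT74D1 at -1.05 and -0.89, all still called. For UGT72E1 the Col arrays at 9 days (128, 182 and 102) overlapped those of both mutants.

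At 21 days against Col 6 of 7 genes were called in ago1-10, with UGT72E3 (3.02) and UGT71C1 (1.2) higher and UGT73B1 (-3.31), UGT73C1 (-2.86), UGT84A3 (-1.26) and UGT74D1 (-1.25) lower, against 30.0% of all probe sets. In ago1-11 4 of 7 were called, with UGT72E3 higher (1.83, adjusted p = 0.0350) and UGT73B1 (-3.55), UGT73C1 (-3.09) and UGT84A3 (-1.03, adjusted p = 0.0209) lower, against 11.7%. With 16 added UGT72E3 was at 1.22 in ago1-10 and was no longer called in ago1-11 (0.59, adjusted p = 0.0760). The other calls against Col at 21 days held, with UGT73B1 at -1.76 and -1.84 in ago1-10 and ago1-11, UGT73C1 at -1.44 and -1.52, and UGT71C1 at 0.67 and UGT74D1 at -0.65 in ago1-10. Against Ler (2) ago1-10 had 4 of 7 genes called (24.9% of all probe sets) and ago1-11 had 3 of 7 (11.5%). With 16 added UGT84A3 was called as well in ago1-10 (-0.66, adjusted p = 0.0471, against -0.74 with adjusted p = 0.0527). In both alleles UGT72E3 was higher, with a difference of 2.00 in ago1-11 (adjusted p = 0.0139), or 0.61 with 16 added (adjusted p = 0.0489). There UGT73C1 was at -1.66 in ago1-10 and -1.89 in ago1-11, or -0.64 and -0.72 with 16 added. The dcl1-9 arrays set against Ler (1) had 0 of 7 called, against 5.50%, with 2 at an unadjusted p under 0.05, among them UGT72E1 (-1.07, adjusted p = 0.0624). UGT73B1 and UGT73C1 at 21 days were called lower in both ago1 alleles with each of the 3 wild-type sets, also with 16 added. Against Ler (1) the UGT73B1 calls were lost with no scaling or with only the compared groups. The UGT73C1 call in ago1-11 was lost with only the compared groups.

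**Figure D3:**
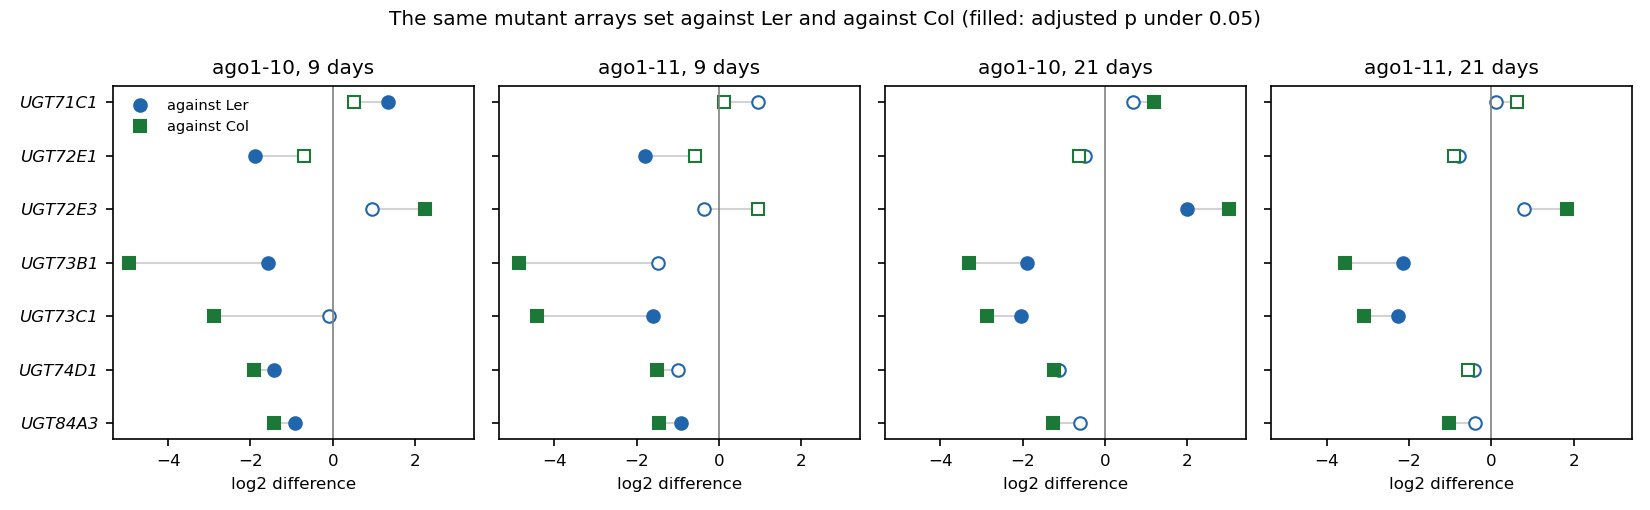
Log2 difference of the 4 ago1 groups from Ler (circles) and from Col (squares) of the same age, with filled symbols for called genes and Ler (1) as the 21-day Ler. At 9 days the squares of UGT73B1 and UGT73C1 lie far to the left of the circles, while those of UGT72E1 lie nearer to 0 and are open.

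Few of the 7 genes differed between ages or between the alleles. UGT72E1 was the 1 gene called between 21- and 9-day Ler, against 6.74% of all probe sets. In Col 0 were called with age, against 3.21%, and 2 had an unadjusted p under 0.05. UGT73B1 there went from 185 ± 29.7 to 57.6 ± 17.8 without overlap (-1.70, adjusted p = 0.0886), and with 16 added both UGT73B1 (-1.47, adjusted p = 0.000101) and UGT73C1 (-0.79, adjusted p = 0.0320) were called. In ago1-10 0 were called from 9 to 21 days (10.7% of all probe sets, 1 with an unadjusted p under 0.05). From 21 to 35 days 0 were called as well (0.0491%, 2 unadjusted), where age and strain code cannot be told apart. In ago1-11 0 were called from 9 to 21 days (2.52%, 1 unadjusted). Between the alleles UGT73C1 was the 1 gene called at 9 days (13.9%), and 0 were called at 21 days (7.33%, 1 unadjusted).

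Ordered by group mean, most neighbouring groups could not be told apart by their arrays. For UGT73B1 9-day Col lay above 21-day Col and 21-day Col above dcl1-9 without overlap, and the other 8 neighbouring pairs overlapped. UGT71C1 ran from 32.2 in 9-day ago1-10 to 8.83 ± 1.32 in Ler (2), and 1 pair, 21-day ago1-11 and dcl1-9, lay apart. UGT73C1 ran from 90.5 ± 34.9 in 9-day Col to 3.39 ± 2.74 in 9-day ago1-11. UGT74D1 ran from 35.7 ± 8.62 in 9-day Col to 7.51 ± 5.59 in 35-day ago1-10. All 10 neighbouring pairs of UGT73C1, UGT74D1 and UGT84A3 overlapped.

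The 35-day ago1-10 arrays have no wild type of their age. Replicate 1, titled x49-2A, carries the number 2, which most of the numbered 21-day titles carry, where the other 35-day titles carry 3. UGT73B1 read 6.59, 11.2 and 1.72, UGT73C1 4.97, 2.19 and 3.30, and UGT74D1 13.1, 7.62 and 1.87. These are dim readings, with 1 of the 9 above 12.2. UGT84A3 had a mean of 107 ± 27.7 and UGT71C1 read 24.1, 21.6 and 11.6. UGT72E3 read 14.3, 19.9 and 2.73, all below the 21-day ago1-10 arrays, but the difference of -1.34 did not pass (adjusted p = 0.560).

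The tests of whether a mutant difference itself changed called 0 of the 7 genes. They were the change of the ago1-10 difference from 9 to 21 days (5.24% of all probe sets called, 2 genes with an unadjusted p under 0.05), that of ago1-11 (2.06%, 0 unadjusted), and the dcl1-9 difference minus that of ago1-10 at 21 days (2.23%, 3 unadjusted). A gene called at 1 age or in 1 mutant and not in another is therefore not shown to differ between them, apart from UGT73C1 between the alleles at 9 days.

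Over the 11 group means UGT73B1 and UGT73C1 had the most alike patterns among the 7 genes (Pearson r = 0.93, Spearman rho = 0.83). Among 2700 other named probe sets UGT73C1 was also the one most like UGT73B1, and UGT73B1 the one most like UGT73C1. UGT72E3 ran opposite to UGT73B1 (r = -0.79) and to UGT84A3 (r = -0.71), while UGT72E1 and UGT72E3 had an r of -0.20. The probe sets most like the others were those of AT4G11290 for UGT72E3 (r = 0.95), AT1G09500 for UGT84A3 (r = 0.96), HAT2 for UGT74D1 (r = 0.93), PHOS34 for UGT72E1 (r = 0.92) and AT5G39410 for UGT71C1 (r = 0.90). The groups share arrays' scaling and, for the mutants, their genotype, so these values describe the 11 groups and carry no test.

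The array names 16 other genes of the family, of which 13 were bright enough to test. In ago1-10 1 of the 13 rose at 9 days, against 16% of all probe sets called, and 3 rose and 2 fell at 21 days, against 21.5%. In ago1-11 1 fell at each age, against 4.70% and 2.78%, and in dcl1-9 0 were called, against 0.785%. The medians of the 13 were -0.02 and 0.26 in ago1-10 at 9 and 21 days, -0.12 and -0.07 in ago1-11, and 0.27 in dcl1-9. IAGLU, an auxin glucosyltransferase, had the smallest adjusted p. At 21 days its signal was 157 ± 65.0 in Ler (1), 35.7 ± 8.06 in ago1-10 (-2.02, adjusted p = 5.36e-06) and 32.7 ± 8.02 in ago1-11 (-2.15, adjusted p = 1.94e-05), with no overlap. In dcl1-9 it was 130 ± 39.3 beside 152 ± 35.6 in Ler (2), and the dcl1-9 difference exceeded that of ago1-10 (1.77, adjusted p = 0.00603). The ago1-10 difference was also larger at 21 than at 9 days (-1.70, adjusted p = 0.00828). Its probe set has the suffix that marks probes shared by several transcripts, which none of the 7 has.

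UGT74B1, which acts in glucosinolate synthesis, fell in 9-day ago1-11 (-0.91, adjusted p = 0.00555) and rose in 21-day ago1-10 (0.64, adjusted p = 0.0267). At 21 days its ago1-10 arrays overlapped those of Ler (2), with 95.9 ± 10.3 beside 78.6 ± 16.5. UGT80B1, a sterol glucosyltransferase, fell in 21-day ago1-10 against Ler (1) (-1.08, adjusted p = 0.0323). Its ago1-10 arrays, from 11.6 to 16.9, lay within the range of Ler (2), from 11.5 to 28.7. UGT71D1 rose in ago1-10 at 9 days (0.78, adjusted p = 0.0209) and at 21 days (0.86, adjusted p = 0.0136). These calls were made against Ler. The Col arrays overlapped those of ago1-10, with 55.2 ± 8.87 beside 57.5 ± 10.5 at 9 days and 43.5 ± 11.2 beside 36.2 ± 6.55 at 21 days.

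Some of the 7 genes lie beside relatives in the TAIR10.1 gene order. UGT71C2 is the gene next to UGT71C1 on chromosome 2, and UGT71D1 lies 3 genes away on the same side. Of these neighbours, looked at for their place in the order, UGT71C2 stood at 0.31 in 9-day ago1-10 (adjusted p = 0.618). It rose at 21 days (1.05, adjusted p = 0.0464), although its arrays overlapped those of Ler (1). Its 21-day Col arrays, at 23.1 ± 2.43, also overlapped those of ago1-10, at 26.6 ± 15.1. UGT84A3 lies between UGT84A1 and UGT84A4 on chromosome 4. Neither was called in 9-day ago1-10, where UGT84A3 fell (-0.35 with adjusted p = 0.725 for UGT84A1, and 0.46 with adjusted p = 0.388 for UGT84A4). UGT73C1 has UGT73C2 as its neighbour, which was measured but too dim to test, with group means from 0.396 to 2.41.

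**Figure D4:**
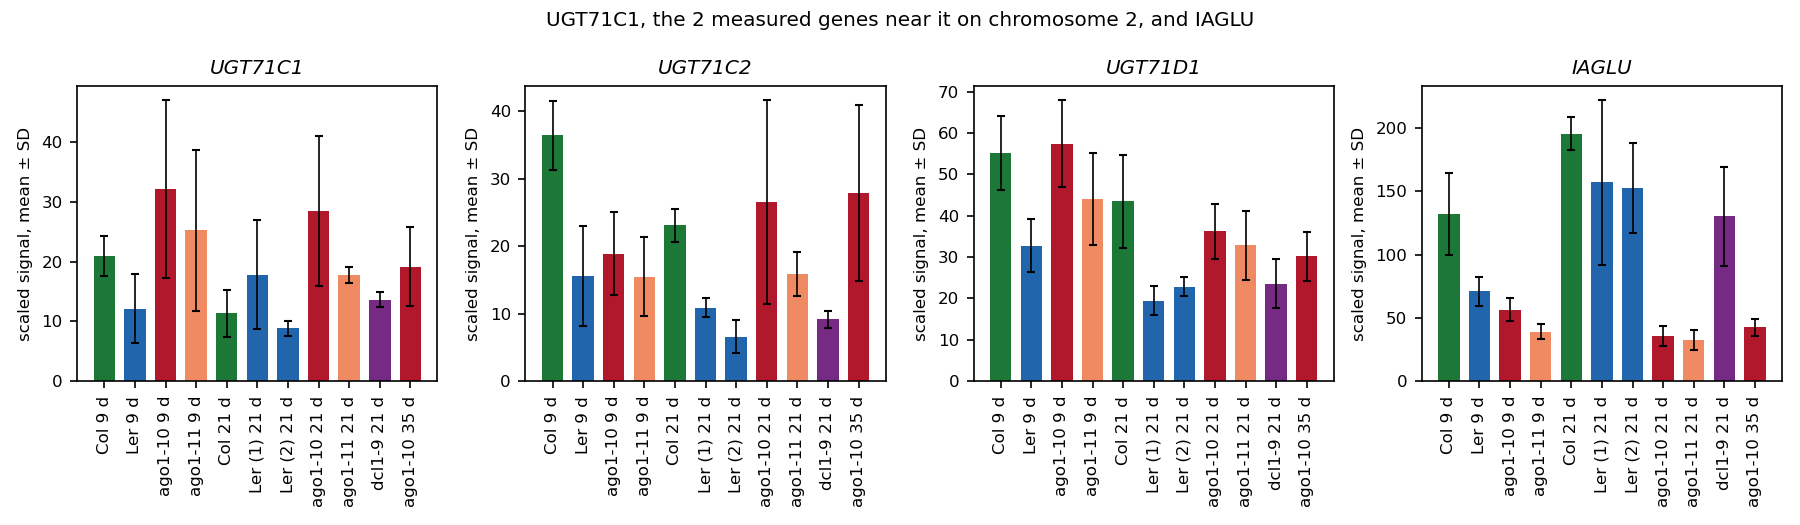
Mean scaled signal ± SD of UGT71C1, of UGT71C2 and UGT71D1 near it, and of IAGLU in the 11 groups (colours as in the plot of every array, bars from 0, each gene on its own axis). IAGLU was at 35.7 and 32.7 in 21-day ago1-10 and ago1-11 and between 130 and 195 in 21-day Col, Ler and dcl1-9.

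Of 28 phenylpropanoid and flavonoid genes on the list used here, which does not hold every gene of these pathways, 2 are named on the array and 1 was bright enough to test. That gene, DFR, encodes dihydroflavonol reductase of anthocyanin synthesis and was called in 0 of the 5 mutant comparisons (-0.62 and 0.22 in ago1-10 at 9 and 21 days, -0.85 and -0.28 in ago1-11, 1.12 in dcl1-9). Glutathione S-transferases, which conjugate small molecules with glutathione, were named for 3 genes. GSTF3 rose at 21 days in ago1-10 (2.45, adjusted p = 7.47e-05) and in ago1-11 (1.54, adjusted p = 0.0352). Its probe set, like that of IAGLU, has a suffix for probes shared by several transcripts. GSTU18 fell in 21-day ago1-10 (-1.45, adjusted p = 0.0145), and GSTU16 was not called in any mutant comparison (-1.75 in 21-day ago1-11, adjusted p = 0.107).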

How the data were processed

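Biotin-labelled cRNA from total RNA of seedlings was hybridised, with 1 array for each sample. What the authors deposited is a MAS5 signal intensity on a linear scale for every probe set (per the submitters' processing notes). Not given in the sources used here are its version and scaling target. Of 305139 values 7913 hold exactly 3 decimals, in 491 probe sets, while no other exceeds 999.9. These were taken as values of at least 1000 and multiplied by 1000. Probe sets above 12.2 (the 40th percentile) on at least 3 arrays were kept, 6112 of 8247, and each array was scaled so that their median was 36.2. After adding 1.2 (the 10th percentile) log2 was taken. One limma model (3.58.1, R 4.3.3; lmFit, contrasts.fit, eBayes with trend) held 37 arrays in 11 group means without covariates. The series text calls the samples biological replicates, and p-values measure the spread between these arrays, whose number limits the precision.

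Groups follow background and age in the labels. Ler was the main wild type of the mutants, and Ler (2), Ler (1) and Col were alternatives. The other alternatives were quantile normalization, trimmed mean scaling, no scaling, 1 or 16 added (16 also with the other wild types), no filter, only the compared groups, strain MR44 only, a replicate block, and each array left out in turn. Genes come from the platform table, which names 1 gene for 3794 probe sets, several for 70 and lists none for 4383, and symbols and gene order come from TAIR10.1. All 7 genes were named. Of the other family genes the 4 with the smallest adjusted p over the 5 mutant comparisons were named (UGT71C2, UGT84A1 and UGT84A4 for their place). The 1 acceptor pathway gene tested and the 3 glutathione S-transferase genes were named as well. For likeness the highest Pearson r over 2700 probe sets of 1 gene was used. The genes, lists and tests were chosen with earlier results of these data known. The model was tested on simulated data. Tables and figures used Python 3.11.15, pandas 2.3.3, numpy 2.4.6 and matplotlib 3.10.9.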

Additional observations from a re-analysis of the deposited data

Results flagged for a closer look

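Among 28 combinations of the 7 genes with a group of 4 arrays, 2 had 1 array far from the other 3, as the ratio of its gap to the whole range on the log2 scale shows, and chance alone gives such a gap in about 1 of 20 groups. UGT74D1 in 9-day ago1-10 had replicate 1 at 3.77 beside 10.8, 10.4 and 11.0 (ratio 0.949). Without that array the difference from Ler was -1.11 and no longer called (adjusted p = 0.0689). UGT72E3 in 9-day ago1-11 had replicate 2 at 3.58 beside 7.81, 7.46 and 7.43 (ratio 0.936), all near background, and without that array the difference from Ler was -0.14 (adjusted p = 0.934). UGT73C1 differed between the alleles at 9 days (-1.52, ago1-11 minus ago1-10, adjusted p = 0.0204), where its arrays overlapped and the call was lost on 4 of 8 omissions of an array and with 16 added. No other difference between mutants, or between the effects at 2 ages, passed for the 7 genes in the model as reported. With 16 added that of UGT72E3 between the alleles at 9 days passed (-0.58, adjusted p = 0.0375), and so did the Ler-Col difference between the ages for UGT73B1 (-1.68) and UGT73C1 (-1.36). No gene had all arrays moving one way at 1 age and the opposite way at another in the pairs compared.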

How the results depend on the processing

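Of 18 calls on the 7 genes over the comparisons against the main wild types, between wild types, ages and alleles, none reversed under any alternative run. All 18 held with 1 added, 17 with quantile normalization, 15 each with trimmed mean scaling, 16 added or no filter, 11 with only the compared groups and 9 with no scaling. With strain MR44 only 5 of 5 calls held, with Ler (2) as wild type 5 of 5, without array x44-3B 2 of 3, and with Col as wild type 10 of 13, while 9 were gained. With 16 added as well, chosen after the data were seen, the same numbers held (5 of 5 and 10 of 13), and 3 and 8 were gained. The counts of called genes that moved by more than 1.5 times were these. For 9-day ago1-11, 3 became 1 with trimmed mean scaling, no scaling, 16 added, no filter and only the compared groups. For 9-day ago1-10, 5 became 2 with no scaling, where UGT73B1, UGT74D1 and UGT84A3 were lost (adjusted p = 0.197, 0.164 and 0.486). For 21-day ago1-11, 2 became 1 with no scaling, 0 with only the compared groups and 4 against Col, and for 21-day ago1-10, 3 became 6 against Col (6 also with 16 added) and 5 against Ler (2) with 16 added. The 1 call of Ler with age became 0 with no scaling or only the compared groups, and the 1 between the alleles at 9 days became 2 with no scaling. Counts of 0 became 1 for Ler (1) against Col with 16 added, 2 with 16 added and 1 with only the compared groups for Col with age, and 2 with 16 added for the Ler-Col difference between ages. Smaller moves were 3 to 4 for 21-day ago1-10 with quantile normalization, with 16 added or against Ler (2), 3 to 2 there with no scaling, only the compared groups or without x44-3B, 2 to 3 for 21-day ago1-11 against Ler (2) or, with 16 added, against Col, 3 to 2 with quantile normalization and 3 to 4 against Col for 9-day ago1-11, 5 to 4 for 9-day ago1-10 with trimmed mean scaling or no filter, and 3 to 2 for Ler against Col at 9 days with no scaling. The cause of these moves was not tested, except that fewer arrays enter a model of the compared groups.

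Leaving out 1 array at a time gave 2 to 5 called genes for ago1-10 at 9 days, 2 to 4 at 21 days, 1 to 3 for ago1-11 at 9 days, 0 to 2 at 21 days, 2 to 3 for Ler against Col at 9 days, and 0 to 1 for Ler with age, ago1-11 with age, the alleles at 9 days and the change of the ago1-10 difference. The other comparisons kept 0. Of 118 omissions that concern a called gene 75 kept the call. The count of all probe sets called moved too, with 562 to 914 for ago1-10 at 9 days, 782 to 1423 at 21 days, 85 to 505 for ago1-11 at 9 days (287 with all arrays) and 68 to 273 at 21 days. The main model did not pair arrays by shared title numbers or letters. The same-numbered dcl1-9 and Ler (2) arrays had correlations of 0.083, 0.083 and 0.172, each the highest for its number. Those with unlike numbers ran from -0.115 to 0.028, so pairing by number may exist and was not tested. The same-lettered 9-day ago1-10 and Ler arrays had correlations of -0.305, -0.179 and 0.175, without a common sign. With a replicate block by letter 1 of the 5 calls in 9-day ago1-10 was kept, and with a block by number dcl1-9 stayed at 0. The dim signals of UGT72E3, UGT73B1, UGT73C1 and UGT74D1 limit how well the size of their differences can be read.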
